A study of Mus musculus with 36 samples.

Results

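The complement genes described here were C3, Cfb, C1qa, C1qb, C1qc, C4b, Cfp, C3ar1 and C5ar1, taken by symbol from the 2 deposited count tables, where each had 1 row. They were 9 of 18116 uniquely named genes in the female table and 9 of 18291 in the male table. The study exposed C57BL/6 mice, a wild-type inbred strain aged 8 weeks at the first dose, to saline (the control) or to an accommodated fraction of MC252 crude oil, of the oil dispersants Corexit 9500 or Corexit 9527, or of either dispersant with oil. The groups are called saline, oil, 9500, 9527, 9500+oil and 9527+oil. Each held 3 female and 3 male mice, 36 in all, dosed with 50 µL at 0.1 of the fraction on days 0, 7 and 13 and killed on day 14. The labels call the route intratracheal instillation, while the study's methods call it oropharyngeal aspiration. No group carried a genetic change. RNA was sequenced from the whole left lung, so that all lung cell types are mixed, and fewer cells of a type and less RNA per cell cannot be told apart. The sexes were treated separately, so that sex and treatment round cannot be told apart. Every comparison with saline within a sex used the same 3 saline mice. The question asked of these genes was whether any exposure moved the complement system in the lung, separately in each sex and over both sexes.

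Complement is a cascade of plasma and tissue proteins that marks microbes, immune complexes and dying cells for uptake. In the classical pathway, C1q, built from the A, B and C chains encoded by C1qa, C1qb and C1qc, recognises the target and leads to cleavage of C4, of which C4b encodes the mouse protein. In the alternative pathway, factor B (Cfb) forms the enzyme that cleaves C3, and properdin (Cfp) holds that enzyme together. All routes meet at C3, whose small fragment C3a acts through the receptor C3ar1, as the later fragment C5a acts through C5ar1. In tissues, C1q is made mostly by macrophages and related myeloid cells, whereas C3 and Cfb are also made by epithelial cells and are known to increase in inflammation.

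The lung markers Sftpc, Scgb1a1, Ager, Foxf1, Nkx2-1 and Hopx were detected in every group, whereas 5 liver markers, for the main source of plasma complement, summed to at most 17.0 CPM in any male mouse. CPM is a gene's count after each library is brought to a common total, here scaled by edgeR's trimmed mean of M-values within each table. Libraries held 17501180 to 30011557 assigned counts. In 4 female libraries, saline 3, oil 6, 9527 mouse 11 and 9500+oil mouse 14, mitochondrial genes took 20.7 to 45.1% of the counts, against 6.16 to 11.3% in the other 14 female libraries and 5.27 to 7.68% in the 18 male libraries. Because the saline females are the reference for every female comparison, the results that include female mice are also given without these 4 libraries, as counts of members for each comparison and as values for the genes that differed most.

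All 9 genes lie on the minus strand of GRCm38. C1qb (chr4:136880129-136886187), C1qc (chr4:136889804-136893065) and C1qa (chr4:136895917-136898803) are neighbours, C4b (chr17:34728380-34743882) and Cfb (chr17:34856374-34862518) lie on the same chromosome as C3 (chr17:57203970-57228136), and the receptor genes C3ar1 (chr6:122847138-122856161) and C5ar1 (chr7:16246743-16259540) and the X-linked Cfp (chrX:20925454-20931555) stand apart. Reads of C4b can be shared with its near-identical neighbour C4a, which had no row in either table, so that the level of C4b is uncertain to that extent. The sequence upstream of the start was read from RefSeq (GRCm38.p6) for 6 of the 9 genes and is shown for 4 of them: the C1qb and C1qc chains, whose levels varied together, C3, at which the pathways meet, and its receptor C3ar1. Each is 5′ to 3′ on the minus strand, bases that the GENCODE annotation places in exons are not printed, and capitals mark a motif match.
C1qb, chr4:136886201-136886450: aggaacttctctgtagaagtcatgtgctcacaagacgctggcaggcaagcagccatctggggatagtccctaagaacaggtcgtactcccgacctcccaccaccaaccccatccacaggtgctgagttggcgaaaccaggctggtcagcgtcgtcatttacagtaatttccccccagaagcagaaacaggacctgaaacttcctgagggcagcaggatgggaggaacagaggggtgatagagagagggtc
C1qc, chr4:136893066-136893164: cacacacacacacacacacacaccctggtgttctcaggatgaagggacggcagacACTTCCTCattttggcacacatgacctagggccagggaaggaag
C3, chr17:57228137-57228386: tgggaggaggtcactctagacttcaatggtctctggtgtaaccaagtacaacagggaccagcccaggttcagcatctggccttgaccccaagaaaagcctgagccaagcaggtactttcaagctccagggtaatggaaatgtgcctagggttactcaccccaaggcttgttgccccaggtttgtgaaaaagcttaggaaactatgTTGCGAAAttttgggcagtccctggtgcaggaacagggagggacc
C3ar1, chr6:122856162-122856407: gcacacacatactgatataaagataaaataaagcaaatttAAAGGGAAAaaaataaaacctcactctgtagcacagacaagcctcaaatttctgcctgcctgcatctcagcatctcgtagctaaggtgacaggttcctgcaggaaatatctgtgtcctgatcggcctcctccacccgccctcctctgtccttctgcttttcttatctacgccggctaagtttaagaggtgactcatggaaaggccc
The search covered all 250 bases before the RefSeq start, those not printed included, on both strands for GAGGAAGT (PU.1, a myeloid factor), GGGNNTTCC (NF-kappa B), TTTCNNTTT (interferon response), TTCNNNGAA (STAT) and TTGCNNAA (C/EBP). The PU.1 letters occurred once, in C1qc on the reverse strand 195 bases before the RefSeq start, which for this gene lies inside the GENCODE gene, and are held by 2.44% of 32851 promoter windows. The C/EBP letters occurred in C3, 45 bases before the start, and are held by 9.56% of windows. The interferon letters occurred in C3ar1 on the reverse strand 210 bases before the start, and are held by 9.37% of windows. No match to the NF-kappa B letters (4.98% of windows) or the STAT letters (7.02%) was found in the windows of C1qb, C1qc, C3, C3ar1, Cfp and C5ar1. The promoter windows of C1qa, Cfb and C4b were not analysed here. A match describes letters, not a bound site.

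In the lungs of saline males, the members differed widely in level per kilobase of exon. C3 stood highest at 285 CPM per kb, followed by C4b at 60.2, C1qa at 36.3 and C1qb at 36.0. Cfb had 17.5 CPM per kb, C1qc 15.0, Cfp 11.7, C5ar1 8.87 and C3ar1 1.56. The central component was thus measured far above the receptors. All 9 passed the filter on low counts in each of the 22 comparisons, and in male libraries the lowest count of any member was 106 reads, for C3ar1.

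**Figure D1:**
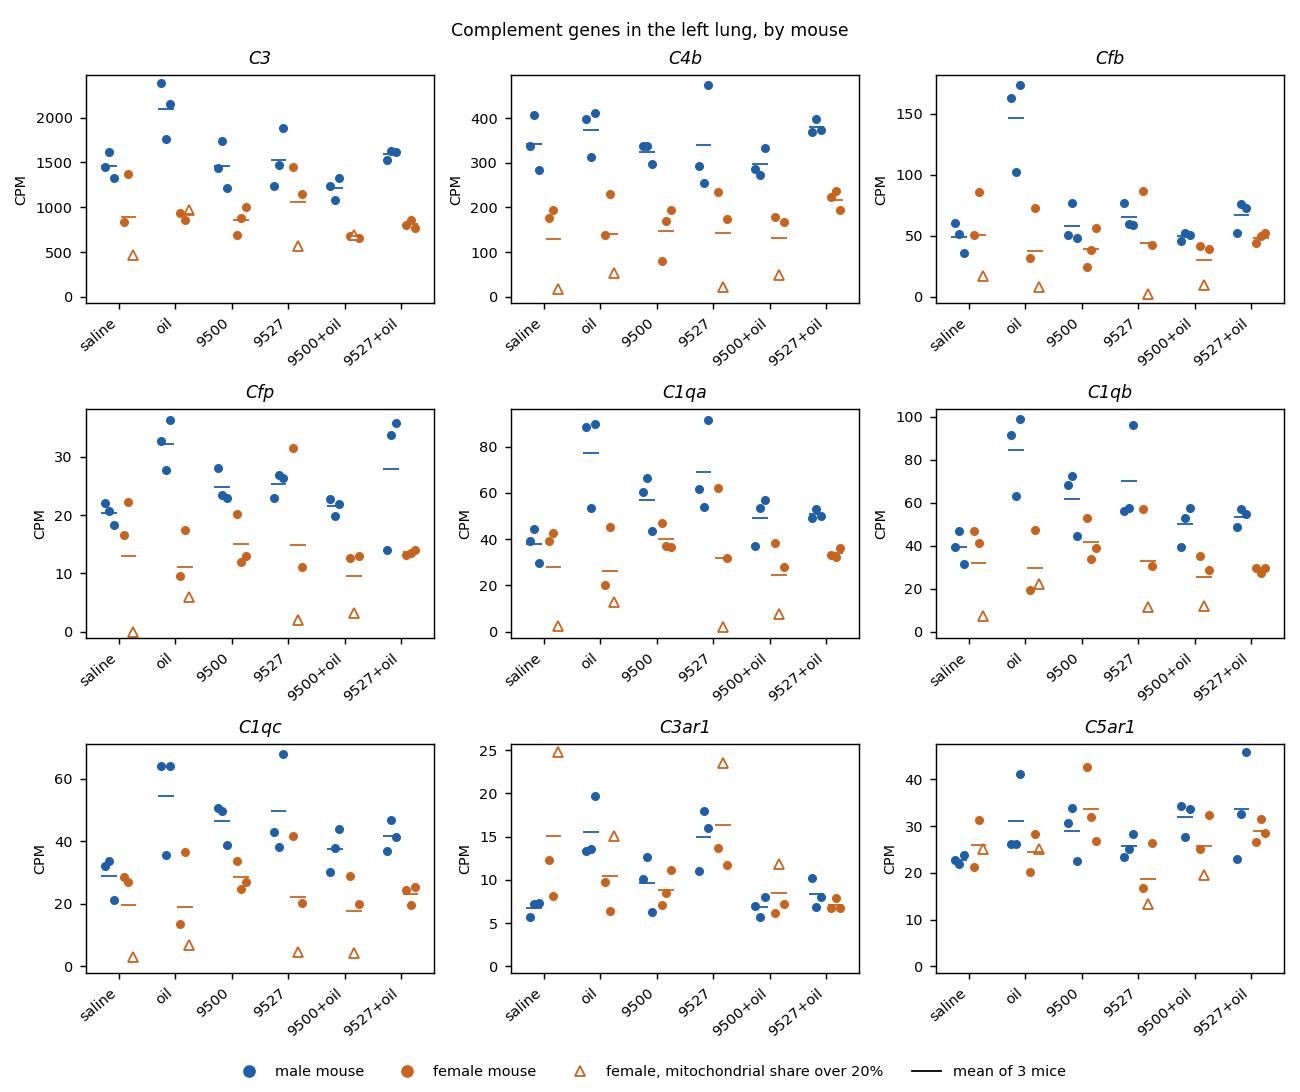
Level of each complement gene (CPM, y axis) in every mouse, by treatment (x axis) and sex. Points are mice, bars are means of 3 mice, and open triangles are the 4 female libraries with a mitochondrial share over 20%. The 3 oil-treated males sit above the 3 saline males for every gene but C4b, with Cfb at 103 to 173 CPM against 36.0 to 60.2.

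In male mice treated with oil, 8 of the 9 complement genes were higher in each treated mouse than in each saline mouse, against 7.42% of the 14914 genes tested in that comparison. The median log2 fold change of the 9 was 0.91, beside -0.01 over all genes. The genes that stood highest over saline were Cfb at 2.96 times its saline mean, C3ar1 at 2.31 times, C1qb at 2.15 times and C1qa at 2.04 times. By edgeR's quasi-likelihood test with Benjamini-Hochberg adjustment over all genes, none of the 9 passed an adjusted p of 0.05, as was the case for all but 1 gene of the table (0.00671%). At an unadjusted p under 0.05 the members numbered 8 of 9, beside 8.21% of all genes. DESeq2, the tool of the study's methods, called 7 of the 9 at an adjusted p of 0.05, all higher, where it called 174 of 18155 genes (0.958%). Which test was used therefore decided whether a member was called.

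Cfb, the enzyme component of the alternative pathway, showed the largest difference of the 9. Its level was 163, 103 and 173 CPM in the oil males and 60.2, 51.7 and 36.0 CPM in the saline males, with no overlap. The log2 fold change was 1.56 ± 0.23 (SE), with an edgeR adjusted p of 0.17 and a DESeq2 adjusted p of 7.61e-09. Properdin, the stabiliser of the same enzyme, was at 32.7, 27.8 and 36.4 CPM against 22.0, 20.7 and 18.3 CPM. Its groups did not overlap either, with a log2 fold change of 0.66 ± 0.13 (edgeR adjusted p = 0.24, DESeq2 adjusted p = 0.00682). C3, which that enzyme cleaves, was at 2384, 1757 and 2151 CPM against 1452, 1613 and 1329 CPM. The C3 groups were separated by a narrower margin, with a log2 fold change of 0.51 ± 0.13 (edgeR adjusted p = 0.32, DESeq2 adjusted p = 0.0202).

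The C1q chains, which recognise the target in the classical pathway, stood above saline together. C1qa was at 88.4, 53.4 and 89.6 CPM in the oil males and 39.3, 44.2 and 29.7 CPM in the saline males. C1qb was at 91.4, 63.0 and 98.8 CPM against 39.4, 46.7 and 31.4 CPM, and C1qc at 63.9, 35.6 and 64.2 CPM against 32.1, 33.7 and 21.2 CPM. For each chain oil mouse 5 was the lowest of the treated males, and for C1qc it stood just above the highest saline mouse. Log2 fold changes were 1.03 ± 0.22, 1.10 ± 0.19 and 0.91 ± 0.25 (SE) for C1qa, C1qb and C1qc, with edgeR adjusted p of 0.26, 0.18 and 0.35. DESeq2 gave adjusted p of 0.000757, 3.05e-05 and 0.0223. C4b, the component cleaved after C1q engages, was at 399, 313 and 412 CPM against 337, 407 and 284 CPM. Its groups overlapped, and its log2 fold change was 0.12 ± 0.15 (edgeR adjusted p = 0.88).

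Of the 2 anaphylatoxin receptors, both carried by myeloid cells, C3ar1 differed more. It was at 13.3, 13.6 and 19.7 CPM in the oil males and 5.67, 7.19 and 7.32 CPM in the saline males, a log2 fold change of 1.20 ± 0.20 (edgeR adjusted p = 0.17, DESeq2 adjusted p = 0.000189). C5ar1 was at 26.1, 26.1 and 41.2 CPM against 22.7, 21.9 and 23.8 CPM. The treated mice were all above the controls, 1 of them well above, and neither test called the gene (log2 fold change 0.45 ± 0.18, adjusted p = 0.56 by edgeR and 0.45 by DESeq2). Without oil mouse 6 the log2 fold change was 0.20.

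Leaving out oil mouse 5 raised the log2 fold change of Cfb to 1.76 with an edgeR adjusted p of 0.047, the only member called by edgeR in any of the 6 fits with 1 male left out. EdgeR called 0 to 9 genes in all in these fits. Under DESeq2 in the same 6 fits, an alternative chosen after the data were seen, Cfb, C1qb and C3ar1 were called in all 6 and C1qa in 5, whereas C3 and Cfp were called in 2 and C1qc in 1. The number of members called ranged from 3, without oil mouse 6, to 7, without oil mouse 5, where DESeq2 called 66 and 497 genes in all.

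Markers of other cells differed in the same mice. The summed level of 10 neutrophil markers was 392 to 1127 CPM in oil males and 307 to 320.1 CPM in saline males, and 8 of the 10 were higher. The 10 alveolar macrophage markers summed to 1017 to 1093 CPM against 746 to 978 CPM, with 7 of 10 higher. The 10 markers of interstitial macrophages and monocytes overlapped, at 1092 to 1548 CPM against 1107 to 1205.1 CPM, with 8 of 10 higher. None of these markers was at 0 in all mice of a group. Lists of structural and muscle cells were separated too. The 6 fibroblast markers summed to 2602 to 2894 CPM in oil males against 2303 to 2595 CPM, with 3 of the 6 higher. Lower sums were found for 5 endothelial markers, at 3637 to 3764 CPM against 3771 to 4260.5 CPM, for 4 mesothelial markers, at 149 to 162 CPM against 163 to 207 CPM, and for 5 heart muscle markers, at 214 to 258 CPM against 268 to 431 CPM. The list of interferon and acute phase genes summed to 816 to 1053 CPM against 545 to 636 CPM, and its gene Il6 was at 0 in all mice of at least 1 group in each sex. The part of any of these in the complement result was not tested.

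**Figure D2:**
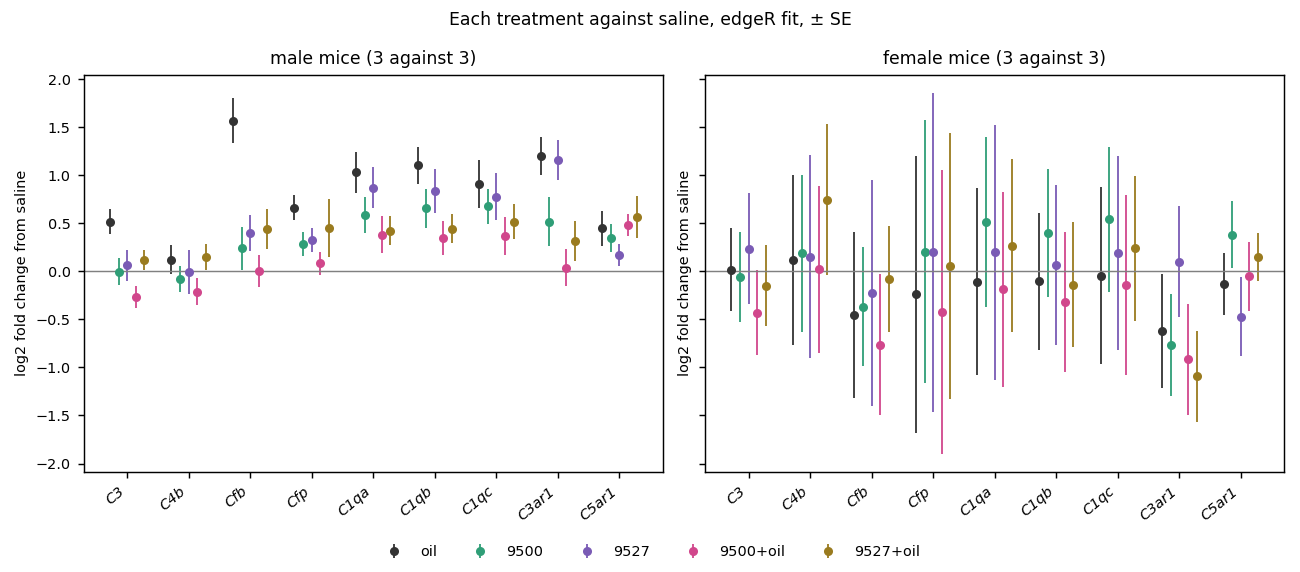
Log2 fold change from saline (y axis) of each complement gene (x axis) for the 5 treatments (colours), in male mice (left) and female mice (right), from fits of 3 against 3 mice; bars are ± SE. In males the oil values reach 1.56 for Cfb with an SE of 0.23, and in females the SE of the same comparison is 0.86.

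In male mice treated with 9527, the C1q chains and C3ar1 were again above saline, while C3, C4b and Cfb were not separated from it. The members whose 3 treated mice all exceeded the 3 saline mice were C1qa, C1qb, C1qc, Cfp and C3ar1, 5 of 9, beside 10.7% of all genes. C3ar1 was at 11.1, 17.9 and 16.0 CPM, a log2 fold change of 1.16 ± 0.21, and came nearest to the edgeR threshold (adjusted p = 0.073). C1qa was at 61.6, 53.7 and 91.7 CPM, C1qb at 56.1, 57.5 and 96.2 CPM, and C1qc at 43.0, 38.1 and 67.8 CPM. For each chain mouse 12 was far above the other two, and the log2 fold changes were 0.87 ± 0.22, 0.84 ± 0.23 and 0.78 ± 0.24 (edgeR adjusted p = 0.15, 0.17 and 0.22). Without mouse 12 they were 0.62, 0.55 and 0.50 by edgeR, and of the 3 chains DESeq2 then called C1qa alone. Cfb was at 76.5, 59.4 and 59.1 CPM, with 2 of the 3 mice inside the saline range, a log2 fold change of 0.40 ± 0.19, which was 0.23 without saline mouse 3. C3 (0.06 ± 0.16) and C4b (-0.01 ± 0.23) lay close to 0 on the log2 scale.

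EdgeR called 0 of 9 members with 9527 in males, beside 17 of 14919 genes (0.114%), and 5 of 9 had an unadjusted p under 0.05, beside 13.7%. DESeq2 called C1qa (adjusted p = 0.00445), C1qb (0.0106), C1qc (0.0383) and C3ar1 (0.000341), 4 of 9, beside 3.15% of all genes. With 1 male left out at a time, DESeq2 called between 1 member, without saline mouse 3, and 4, without 9527 mouse 11; C3ar1 was called in all 6 of those fits, C1qa in 5, C1qb in 3 and C1qc in 1. Over all genes these fits made 274 to 834 calls by DESeq2 and 0 to 211 by edgeR. The fit over all 6 treatment groups also called C3ar1 by edgeR, 1 of 9 members beside 284 of 15519 genes (1.83%). The alveolar macrophage markers summed to 925 to 1710 CPM in these mice against 746 to 978 CPM in saline males, with 6 of 10 higher, and the neutrophil markers to 124 to 284 CPM against 307 to 320.1 CPM. The fibroblast markers, at 2969 to 3451 CPM, and the interferon and acute phase genes, at 715 to 958 CPM, lay above their saline ranges given for oil. The endothelial markers, at 3123 to 3292 CPM, lay below theirs, as did the club and ciliated cell, red blood cell and fat markers. Their part in the result was not tested.

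With 9500 in males, the C1q chains were above their saline means, C1qb at 1.58 times and C1qc at 1.60 times, and C3ar1 was at 1.43 times its own, while C3, at 0.999 times, and C4b, at 0.946 times, were near theirs. Log2 fold changes were 0.59 ± 0.18 for C1qa, 0.65 ± 0.20 for C1qb and 0.68 ± 0.18 for C1qc, with edgeR adjusted p from 0.74 to 0.76. They were 0.52 ± 0.25 for C3ar1, 0.35 ± 0.15 for C5ar1 and 0.29 ± 0.12 for Cfp (edgeR adjusted p = 0.78 for each), and without 9500 mouse 8 that of C3ar1 was 0.28. The 3 treated mice exceeded the 3 saline mice in C1qc, at 50.7, 49.8 and 38.8 CPM, and in Cfp, at 28.1, 23.4 and 23.0 CPM; these were 2 of 9 members, beside 6.39% of genes. At an unadjusted p under 0.05 there were 5 of 9 members, beside 6.35% of genes, and edgeR called 0 of 9, beside 0.00662%. DESeq2 called 0 of 9 as well, beside 48 of 18188 genes (0.264%), with the lowest adjusted p, 0.070, for C1qc. C3, at 1434, 1740.2 and 1216 CPM, spread to both sides of the saline males. The endothelial markers summed to 3397 to 3704 CPM with 9500, below the 3771 to 4260.5 CPM of saline males, and their part in these values was not tested.

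With 9500+oil in males, C5ar1 was the only member separated from saline, at 34.3, 27.7 and 33.7 CPM (log2 fold change 0.48 ± 0.11, edgeR adjusted p = 0.51). That was 1 of 9 members, beside 7.86% of genes. C3 was at 1232, 1085 and 1329.8 CPM, a log2 fold change of -0.27 ± 0.11 (adjusted p = 0.53). These 2 genes had an unadjusted p under 0.05, beside 9.22% of genes. Cfb, which was highest with oil alone, was at 45.4, 52.6 and 50.4 CPM, within the saline range, and C3ar1 was at 7.03, 5.68 and 8.03 CPM. With 9527+oil in males, the C1q chains were again separated from saline, 3 of 9 members beside 5.92% of genes, with log2 fold changes of 0.42 ± 0.15, 0.44 ± 0.15 and 0.52 ± 0.18 for C1qa, C1qb and C1qc (edgeR adjusted p = 0.88 for each). Without saline mouse 3 they were 0.28, 0.31 and 0.33. The interferon and acute phase genes summed to 686 to 819 CPM in these mice against 545 to 636 CPM in saline males, and their part was not tested. C5ar1, at 22.9, 32.5 and 45.9 CPM, spread widely between mice. At an unadjusted p under 0.05 there were 4 of 9 members, beside 5.54% of genes, and the gene called by edgeR (0.00669%) was not a member.

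Over the 6 male groups, the order of the means placed oil first for C3, Cfb, Cfp, C1qa, C1qb, C1qc and C3ar1, and saline last for all of these but C3, which was lowest with 9500+oil. For C1qa, C1qb, C1qc and C3ar1 the order was the same throughout, namely oil, 9527, 9500, 9527+oil, 9500+oil and saline, and each neighbour in it overlapped the next. For C3 and Cfb the step from oil to the next group, 9527+oil, was the only one between neighbours without overlap, and for Cfp it was the step from 9500 to 9500+oil. C4b ranged least, from 297 ± 31.6 CPM (SD, n = 3) with 9500+oil to 380.2 ± 15.6 CPM with 9527+oil, a ratio of 1.28. Because all treatments share the saline males, the low place of saline in several genes is 1 observation, not several.

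In female mice no member was called, and the spread was larger. EdgeR called 0 of 9 in each of the 5 comparisons, and no gene of the table in any of them (0.0%). DESeq2 likewise called 0 of 9, where it called 4 genes with oil, 8 with 9500, 13 with 9527, 4 with 9500+oil and 17 with 9527+oil, and limma voom with quality weights called 0 of 9, where it called 6 genes with 9527+oil and 0 with the others. By edgeR at an unadjusted p under 0.05 there was also no member, beside 0.108% of genes with oil, 0.364% with 9500, 0.267% with 9527, 0.155% with 9500+oil and 1.1% with 9527+oil. Cfb, for example, was at 50.4, 85.6 and 17.0 CPM in saline females and 31.9, 72.8 and 8.11 CPM in oil females, a log2 fold change of -0.46 ± 0.86. C1qa was at 39.4, 42.5 and 2.34 CPM against 20.1, 45.4 and 12.6 CPM with oil. In limma voom, 5 of the 9 were lower with oil at an unadjusted p under 0.05, beside 19.6% of genes. They were Cfb, Cfp and the C1q chains, with C1qb at -1.04 ± 0.26 (limma voom adjusted p = 0.24), and the median of the 9 was -0.90, against -0.11 by edgeR. The club and ciliated cell markers summed to 20712 to 25964 CPM in oil females against 7824 to 19807 CPM in saline females, and their part was not tested. In both groups the lowest value of Cfb and of C1qa belonged to a library with a high mitochondrial share.

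The members differed in how far these libraries lay from the rest of their groups. In saline mouse 3, relative to the mean of the other saline females, Cfp had 0 counts of 17501180, which allows up to 0.171 CPM on the unscaled total, C1qa was at 0.057 times, C4b at 0.098 times and C1qc at 0.11 times, whereas C5ar1 was at 0.95 times and C3ar1 at 2.41 times. The other 3 such libraries showed the same for C3ar1, at 1.75 to 1.87 times the other mice of their groups, and C1qa was at 0.038 to 0.39 times. C3 was at 0.43, 1.08, 0.44 and 1.03 times in saline mouse 3, oil mouse 6, 9527 mouse 11 and 9500+oil mouse 14. These ratios depend on the scaling, whose factors were 0.488, 0.832, 0.532 and 0.863 in these 4 libraries, in the same order, and above 1 in the other female libraries. On the unscaled totals C3ar1 was at 1.02, 1.37, 0.856 and 1.35 times, so that it stood above its group in 3 of the 4 and by less, C5ar1 was at 0.29 to 0.76 times, and C1qa at 0.018 to 0.28 times. The transcripts of C1qa, C1qc, C1qb, Cfp and C4b are rich in G and C, at 55.3 to 59.5%, against a median of 49.8% over genes of both tables, and that of C3ar1 is poor, at 43.0%. Cfb, at 52.9%, was nearer that median and was at 0.030 to 0.25 times, and C3 had 53.3%. The part of the mitochondrial share and of base composition in these values was not tested.

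**Figure D3:**
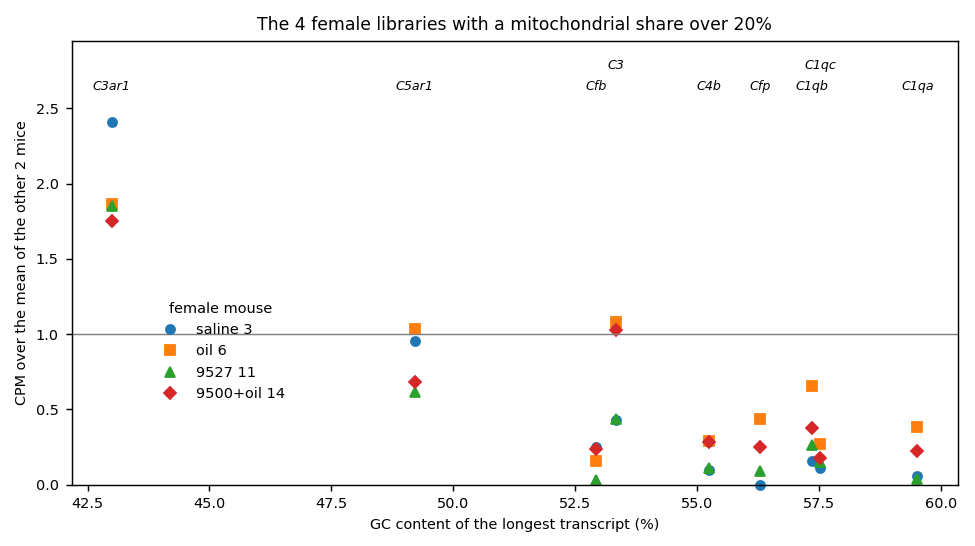
TMM-scaled CPM of each complement gene in the 4 female libraries with a mitochondrial share over 20%, as a ratio (y axis) to the mean of the other 2 mice of the group, against the GC content of the gene's longest transcript (x axis). C3ar1, the least GC-rich, lies at 1.75 to 2.41 (0.856 to 1.37 on the unscaled totals), C1qa, the most GC-rich, at 0.038 to 0.39, and Cfb, with a middle GC content, at 0.030 to 0.25.

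Without those 4 libraries the female comparisons had 4 or 5 mice, and still none of the 9 was called by edgeR in any of them. Over all genes edgeR called 2 with 9527+oil and 0 with the other treatments. With oil all 9 log2 fold changes were below 0, with a median of -0.32, with the largest at -0.52 ± 0.33 for Cfp and C4b close to 0. The median was -0.21 with 9500 and 0.15 with 9527, and with oil, 9500 and 9527 no member had an unadjusted p under 0.05. Over all genes, 144 of 15012 had one with oil, 248 of 15167 with 9500 and 762 of 15297 with 9527. With 9527+oil the median was -0.44 and 5 members had an unadjusted p under 0.05, all lower, beside 12.3% of genes. The largest of these was C1qb, at 29.5, 27.5 and 29.5 CPM against 47.0 and 41.1 CPM in the remaining saline females (-0.61 ± 0.11, edgeR adjusted p = 0.31). With 9500+oil 4 members, C3, Cfb, C1qb and Cfp, had an unadjusted p under 0.05, all lower, beside 1.24% of genes, at an adjusted p of 1.0. C3 was at 679 and 654 CPM there against 837 and 1372 CPM, a log2 fold change of -0.72 ± 0.26. With 2 saline mice, these values rest on very few animals. Over all libraries, the interferon and acute phase genes summed to 529 to 596 CPM with 9527+oil and 473 to 614 CPM with 9500+oil, against 614 to 806 CPM in saline females. The alveolar macrophage markers summed to 540.1 to 560.1 CPM with 9527+oil against 753 to 987 CPM, and the part of either list was not tested.

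Over both sexes, with sex as a term in the fit, no treatment gave a member an unadjusted p under 0.05 by edgeR with all libraries, beside 0.442% of genes with oil, 2.3% with 9500, 2.86% with 9527, 0.418% with 9500+oil and 2.99% with 9527+oil. The table as a whole had 5 calls with 9527 (0.0326%) and 0 with the others. Without the 4 libraries, 2 of 9 members had one with 9500 (C1qc at 0.39 ± 0.17 and C5ar1 at 0.35 ± 0.15, beside 5.62% of genes) and 3 with 9527 (C1qa at 0.61 ± 0.22, C1qc at 0.53 ± 0.23 and C3ar1, beside 15.6%). There were 2 with 9500+oil (C3 and C5ar1, the second at 0.34 ± 0.13, beside 7.16%), 1 with 9527+oil (C5ar1 at 0.37 ± 0.17, beside 10.6%) and 0 with oil (beside 2.52%). At an adjusted p of 0.05 edgeR called 0 of 9 members for each treatment in these fits. Over all genes it called 331 of 15531 with 9527 and 0 with the other treatments. With all libraries the oil values were all above 0, from 0.12 ± 0.47 for C4b to 0.56 ± 0.58 for Cfb on the log2 scale. With 9527, C3ar1 had a log2 fold change of 0.63 ± 0.34 (edgeR adjusted p = 1.0), which was 0.81 ± 0.21 without the 4 libraries (adjusted p = 0.072) and 0.80 ± 0.16 in limma voom with quality weights (adjusted p = 0.012), the 1 member called there, beside 5.19% of genes. The alveolar macrophage markers summed to 1345 to 2224 CPM in 9527 females against 753 to 987 CPM in saline females. Their part in the C3ar1 value was not tested. C3 with 9500+oil was at -0.33 ± 0.22, and at -0.45 ± 0.14 without the 4 libraries (edgeR adjusted p = 0.69).

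Whether the sexes differed was tested as the interaction of treatment and sex, given as the male minus the female log2 fold change. EdgeR called 0 of 9 members and 0 genes for each of the 5 treatments. The oil values were 2.00 ± 0.99 for Cfb and 1.75 ± 0.63 for C3ar1, and C3ar1 alone had an unadjusted p under 0.05 (0.019), beside 1.65% of genes. With 9527+oil C3ar1 alone had one too, at 1.39 ± 0.52 (edgeR adjusted p = 0.95), beside 2.39% of genes. With 9500 (0.726% of genes), 9527 (0.352%) and 9500+oil (0.509%) there was none. Without the 4 libraries there was 1 with 9500 (C1qc at 0.64 ± 0.29, beside 1.96% of genes), 1 with 9527 (C3ar1 at 0.84 ± 0.35, beside 2.81%) and 3 with 9500+oil (Cfp at 0.67 ± 0.21, C1qb at 0.80 ± 0.27 and Cfb at 0.74 ± 0.33, beside 2.63%), each at an edgeR adjusted p of 1.0. The oil interaction without them was 1.95 ± 0.53 for Cfb and 1.55 ± 0.38 for C3ar1, and 6 members had an unadjusted p under 0.05, beside 5.98% of genes. The 9527+oil interaction then had 7 such members, beside 6.73%, led by C1qb at 1.05 ± 0.20 (edgeR adjusted p = 0.59). Limma voom with quality weights, on all libraries, called Cfb, C1qa and C1qb for the oil interaction, at log2 values of 2.61 ± 0.44, 2.04 ± 0.36 and 2.25 ± 0.33 (adjusted p = 0.037, 0.044 and 0.036), 3 of 9 members beside 0.553% of genes. A difference between the sexes in the response of these genes was therefore called by 1 of the 3 tools.

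Adding oil to a dispersant was compared directly, without the saline mice. In 9527+oil against 9527, C3ar1 was the member that differed most: 13.7, 23.5 and 11.7 CPM in 9527 females and 11.1, 17.9 and 16.0 CPM in 9527 males stood against 6.76, 7.91 and 6.72 CPM and 10.2, 6.88 and 8.02 CPM with 9527+oil. Within each sex every 9527+oil mouse was below every 9527 mouse. The log2 fold change was -1.01 ± 0.21, with an edgeR adjusted p of 0.070 and a DESeq2 adjusted p of 0.000947. Without 9527 mouse 11, the female library with a high mitochondrial share in that contrast, it was -0.84 ± 0.14 with an edgeR adjusted p of 0.0077, so that C3ar1 was lower past the threshold in that fit, 1 of 9 members beside 6.63% of genes. With at least 10 counts asked of every mouse it was -0.98 with an edgeR adjusted p of 0.045, again 1 of 9 members, beside 0.826% of genes. Without 9527 mouse 11 C1qa was at -0.46 ± 0.17 and C1qb at -0.49 ± 0.17 (edgeR adjusted p = 0.11 and 0.10), against -0.18 ± 0.52 and -0.29 ± 0.30 with all libraries. With all libraries edgeR called 0 of 9, beside 0.559%, and DESeq2 1 of 9, beside 3.51%. C5ar1 went the other way, at 0.51 ± 0.20 (edgeR adjusted p = 0.31). Limma voom with quality weights called both receptors, C3ar1 lower at -0.80 ± 0.15 (adjusted p = 0.0056) and C5ar1 higher at 0.54 ± 0.15 (adjusted p = 0.044), 2 of 9 members beside 10.2% of genes. By edgeR these 2 were the members with an unadjusted p under 0.05, beside 14.1% of genes. The alveolar macrophage markers had 9 of 10 lower in the same contrast, at 540.1 to 560.1 CPM in 9527+oil females against 1345 to 2224 CPM in 9527 females, and at 573 to 960.5 CPM against 925 to 1710 CPM in males. Other lists were separated in both sexes. The fibroblast markers were lower with 9527+oil, at 1663 to 2186 CPM against 2238 to 3054 CPM in females and 2254 to 2449 CPM against 2969 to 3451 CPM in males. The endothelial markers were higher, at 3517 to 4008 CPM against 2228 to 2606 CPM and 3705 to 3781 CPM against 3123 to 3292 CPM, as were the mesothelial markers. The part of these lists in the receptor values was not tested.

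In 9500+oil against 9500 all 9 log2 fold changes were below 0, with a median of -0.31 beside 0.02 over all genes. They ran from -0.12 ± 0.18 for C5ar1 to -0.51 ± 0.25 for C1qb. With all libraries none was called by edgeR, which called 0 of 15333 genes. C3, at -0.31 ± 0.14, was then the only 1 of 9 with an unadjusted p under 0.05, beside 1.95% of genes. Without the 9500+oil female library with a high mitochondrial share, 8 of the 9 were below 0 and the median was -0.24. EdgeR again called 0 of 9 members and 0 genes. C3, at -0.31 ± 0.13, and C3ar1, at -0.44 ± 0.20, had an unadjusted p under 0.05 there, 2 of 9 members beside 514 of 15565 genes. In the same fit C1qb was at -0.34 ± 0.16 and C5ar1 at -0.023 ± 0.16. In males of this contrast the fibroblast markers summed to 2375 to 2428 CPM against 2530.1 to 3080.3 CPM with 9500 alone, and the endothelial markers to 3895 to 4262 CPM against 3397 to 3704 CPM, both without overlap. The mesothelial markers were lower there too, at 151 to 171 CPM against 173 to 186 CPM, and those of interstitial macrophages and monocytes were higher, at 1170.2 to 1231 CPM against 1072 to 1164 CPM. In females these 4 lists overlapped, and their part was not tested.

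The C1q chains varied together across mice. Over the 32 libraries with a mitochondrial share under 20%, after the mean of each sex was subtracted, Pearson's r of log2 CPM was 0.96 between C1qa and C1qb, 0.96 between C1qa and C1qc and 0.94 between C1qb and C1qc. Among 15913 genes, C1qb and C1qc were the 2 most like C1qa, followed by Pgd at 0.84, an enzyme of the pentose phosphate pathway. C3 was most like Slc37a2 (r = 0.74), Cfb (0.72) and Slc5a1 (0.72), and Cfb most like Slc37a2 (0.78), the acute phase gene Orm2 (0.77) and Ptafr (0.76), the receptor for platelet-activating factor. C4b was most like Fam179a (0.85), Gorasp1 (0.84) and Ehbp1l1 (0.84). C5ar1 stood apart from the rest, with r from -0.14 to 0.24 with the other members. These values describe libraries that share treatment groups, a sequencing design and base composition, and they carry no test.

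**Figure D4:**
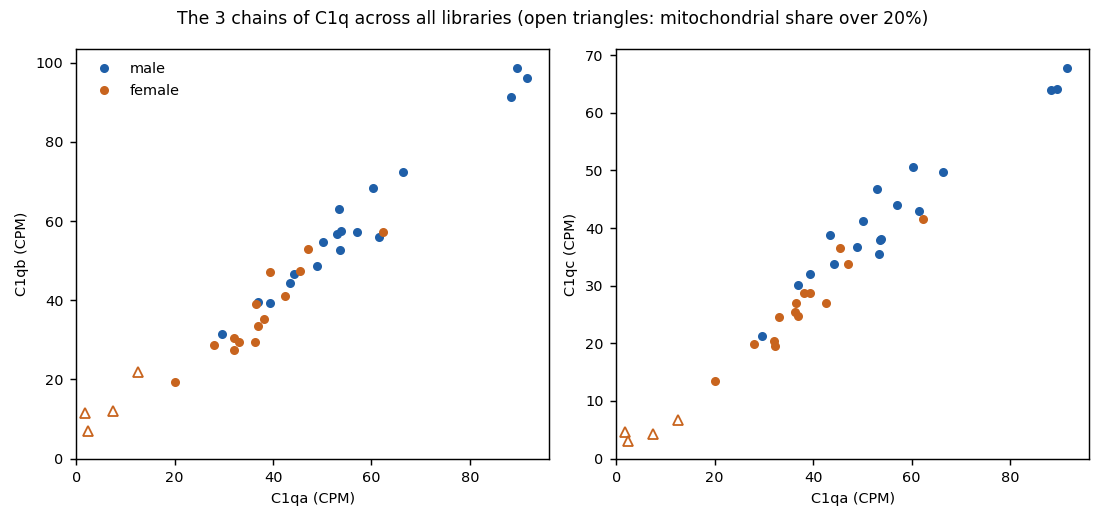
Level of C1qb (left) and C1qc (right) in CPM against C1qa in CPM, 1 point for each of 36 libraries. The chains rise together in both sexes, from the 4 libraries with a mitochondrial share over 20% at the low end to 2 oil males and 1 9527 male above 88 CPM of C1qa.

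A list of 49 other genes of the complement pathway gave the surroundings. Of these, 43 were in the female table and 42 in the male table, and 30 to 34 were tested in a comparison. EdgeR called none of them in any of the 22 comparisons. With oil in males, 8 of 33 were higher and 1 lower at an unadjusted p under 0.05, with a median log2 fold change of 0.07. Those named here for their role as leukocyte complement receptors were chosen after their values were seen. Itgam and Itgb2, which together form complement receptor 3, had log2 fold changes of 1.06 ± 0.31 and 0.62 ± 0.13, and Itgax, which pairs with Itgb2 in complement receptor 4, 0.66 ± 0.10, with adjusted p from 0.17 to 0.38. C5ar2, the second C5a receptor, was at 0.80 ± 0.24. The lower gene was Cfd, at -1.39 ± 0.45, which encodes the protease that activates factor B and is made mainly by fat cells. It stood beside 3 of 3 tested fat markers below 0 in the same mice, and fat markers summed to 14.2 to 21.6 CPM against 23.8 to 26.0 CPM in saline males, where their part was not tested.

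**Figure D5:**
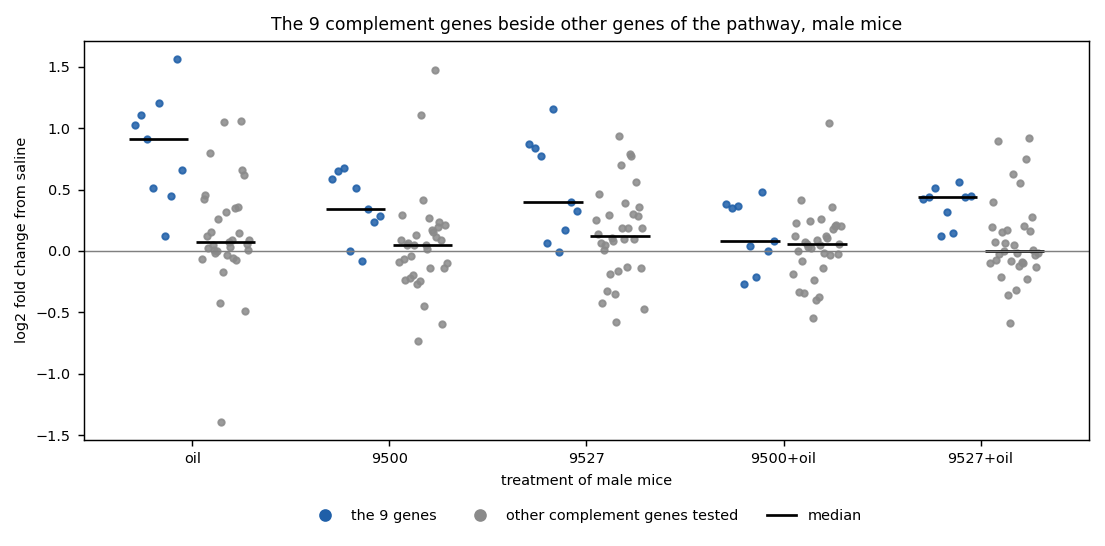
Log2 fold change from saline (y axis) in males for the 9 complement genes (blue) and the other complement genes tested (grey), by treatment (x axis); bars are medians. With oil the median of the 9 is 0.91 and that of the 33 others 0.07. The members and the list were chosen with earlier results of these data known, so that their contrast is not a test.

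Over both sexes, the 2 other complement genes with the smallest p in each treatment included no call. They were Itgb2 (0.30 ± 0.16) and the complement inhibitor Csmd1 (-0.91 ± 0.53) with oil, Clu (0.40 ± 0.15) and the lectin Colec11 (-2.02 ± 1.06) with 9500, and Clu (0.61 ± 0.15) and Itgb2 (0.33 ± 0.13) with 9527. With 9500+oil they were Cd59a (0.28 ± 0.19), an inhibitor of the terminal complex, and Csmd1 (-0.69 ± 0.55), and with 9527+oil the carboxypeptidase subunit Cpn2 (1.05 ± 0.48) and Hc (-0.28 ± 0.15), which encodes C5. Clu encodes clusterin, which binds the terminal complex. It was at 484 ± 46.7 CPM (SD, n = 3) in 9527 males against 297 ± 29.0 CPM in saline males, and its adjusted p was 0.47 over both sexes by edgeR.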

How the data were processed

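RNA of the left lung of 36 mice, 3 per sex and treatment, was sequenced with a stranded kit. The authors quantified reads against the GRCm38 transcripts with Salmon and joined the libraries with tximport. The methods describe a matrix of transcripts, but its rows are named by gene symbol, and how transcripts were brought to genes is not given in the sources used here. The authors deposited expected counts per gene as whole numbers, 1 table per sex, every listed gene having at least 10 counts in all. Versions are not given in the sources used here. Libraries held 17501180 to 30011557 counts. The 4 rows per table whose name occurs more than once, 0.0103% of female and 0.0128% of male counts, were left out. Groups follow the labels, and every mouse is a separate animal.

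Genes were tested with edgeR 4.0.16 (R 4.3.3; TMM scaling, filterByExpr, quasi-likelihood F-test), two-sided, adjusted over all genes tested, with a threshold of 0.05. The 22 comparisons were each treatment with saline over both sexes (sex as a term) and within each sex, their interaction with sex, and each dispersant with oil against the dispersant alone. CPM per kb used the exon length of the GRCm38 annotation. DESeq2 1.42.0, which the study used, limma 3.58.1 (voom), other scalings and filters, all groups in one fit, the mouse number as a block for the interactions, and leaving out libraries were the alternatives. The scripts were tested on simulated data. All 9 genes were described; other complement genes were named if called, or as the 2 with the smallest p against saline over both sexes; and the 3 genes most like C1qa, C3, Cfb and C4b were named by Pearson's r. Itgam, Itgax, C5ar2 and Cfd fall outside this rule and were picked with their values in view. The members and lists were chosen with earlier results of these data known.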

Additional observations from a re-analysis of the deposited data

Results flagged for a closer look

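With 9527+oil, C3, C1qb and C3ar1 lay on opposite sides of the saline mean in the sexes: every treated male was above the mean of the saline males and every treated female below that of the saline females. The interaction, as the male minus the female log2 fold change, was 0.26 ± 0.44 (SE) for C3, 0.58 ± 0.70 for C1qb and 1.39 ± 0.52 for C3ar1, and the edgeR adjusted p was 0.95 for each. The female saline mean includes the library with the highest mitochondrial share, in which C3ar1 was at 24.7 CPM against 12.3 and 8.18 CPM in the other saline females, a difference that rests on the scaling, since on the unscaled totals it was at 12.1 CPM against a mean of 11.8 CPM. Without the 4 such libraries the interactions were 0.57 ± 0.23, 1.05 ± 0.20 and 0.83 ± 0.30, with edgeR adjusted p of 0.73, 0.59 and 0.73.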

How the results depend on the processing

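Members called, 0 of 9 in each of the 22 comparisons by edgeR, changed in 5 comparisons. DESeq2 called 7 with oil in males, 4 with 9527 in males and 1 in 9527+oil against 9527. Limma voom called 1 with 9527 over both sexes, 3 for the oil interaction and 2 in 9527+oil against 9527, where C3ar1 was lower and C5ar1 higher. One fit over all 6 groups called 1 with 9527 in males, beside 1.83% of genes, and a minimum of 10 counts in every mouse (beside 0.826%) and leaving out the high-mitochondrial libraries (beside 6.63%) each called 1 in 9527+oil against 9527. With 1 mouse left out, edgeR called 0 to 1 with oil in males (1 without oil mouse 5) and 0 to 1 in 9527+oil against 9527 (1 without female 9527 mouse 11), and DESeq2, added after the data were seen, called 3 to 7 with oil and 1 to 4 with 9527 in males. The cause was not tested. No called member reversed. Leaving out 1 mouse turned the sign of 71 of 270 female values, 56 of 756 over both sexes, 44 of 540 interactions and 14 of 270 male values.

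Counts over all genes moved more over the settings that leave out no single mouse: from 1 to between 0 and 174 with oil in males, from 17 to between 17 and 572 with 9527 in males, from 5 to between 2 and 796 with 9527 over both sexes, from 0 to at most 85 for the oil interaction, and from 86 to between 76 and 1570 in 9527+oil against 9527. With 1 mouse left out, edgeR called 0 to 9, 0 to 211, 0 to 9, 0 and 0 to 1039 in these 5 comparisons, and DESeq2 66 to 497 with oil and 274 to 834 with 9527 in males. At this depth Cfp had 0 counts in female saline mouse 3 and at least 323 in every male. Mouse numbers are shared between the sexes only, by different animals. With that number as a replicate block, edgeR called 0 of 9 members and 0 genes for each interaction, as without it. The block was not used otherwise, since each mouse number belongs to a single treatment and, within a sex, to a single mouse. As a description, 6 of 18 same-numbered pairs had deviations from their group means that correlated over 0.1. In 8 of 18 the female correlated best with the male of its own number.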
